A study of Homo sapiens with 8 samples.

Results

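The ligands and receptors of the EGF receptor family were described in 786-O cells, a clear cell RCC line without functional VHL, as a set of 10 genes: TGFA, EREG, AREG, HBEGF, BTC, EPGN, NRG1, EGFR, ERBB2 and ERBB3. A member was taken from the transcript clusters, the units of the array, whose annotation gave its symbol alone, and where a gene had more than 1 such cluster the one with the highest mean over the 8 arrays was used. By this rule 9 of the 10 genes had a cluster, 6 ligands and 3 receptors, out of 18417 genes with such a cluster and 33297 clusters in all. AREG was not analysed here. NRG1 was the only member with more than 1 cluster.

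Total RNA came from 786-O cells that carried no vector (VHL-) and from stably transfected 786-O cells that carried a VHL expression vector (VHL+), each kept for 24 h under normoxia or under hypoxia (1% oxygen in the study's methods), with 2 biological replicates for each of the 4 groups. Both groups thus share the genetic background of 1 tumour line, and since the VHL- cells carried no empty vector, an effect of VHL and one of transfection and selection cannot be told apart. VHL is part of a ubiquitin ligase that marks HIFα for degradation when oxygen is present. On the log2 scale, the signal of VHL itself ranged from 8.23 to 8.51 in VHL- cells and from 8.85 to 9.16 in VHL+ cells. Its difference passed the test under normoxia (log2 fold change 0.52, SE 0.14, limma adjusted p = 0.0398) and under hypoxia (0.75, SE 0.14, adjusted p = 0.00211), although the former was lost without any single array of the VHL- normoxia, VHL+ normoxia or VHL+ hypoxia groups (adjusted p up to 0.436) and the latter without either array of VHL+ hypoxia (adjusted p from 0.0729 to 0.0787). Replicate arrays correlated with a Pearson r from 0.991 to 0.994 across clusters, and the medians of the arrays ranged from 6.60 to 6.91. Of the tubular and renal carcinoma markers, none of the 10 measured lay below its array's median on all arrays, whereas 3 of 4 leukocyte, 3 of 3 endothelial and 2 of 3 fibroblast markers and the erythroid marker HBB did.

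The ligands of this family are made as membrane-anchored precursors, which metalloproteases such as ADAM17 release from the cell surface. TGFA, EREG, AREG, HBEGF, BTC and EPGN bind EGFR (HBEGF, BTC and EREG bind ERBB4 too), and NRG1 binds ERBB3 and ERBB4. ERBB2 has no known ligand and acts as a partner in dimers, and ERBB3 has little kinase activity of its own and signals through its partners. In RCC without VHL, TGFA is known as a ligand raised through HIF2α, which lets the tumour cells stimulate their own EGFR.

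The 3 ligands whose signals differed with VHL are shown first by the 250 bases before their RefSeq start sites (GRCh38.p14), because HIF binds DNA at a short core within hypoxia response elements. The cores ACGTG and GCGTG were searched on both strands, and a match is printed in capitals. Matches on the other strand read CACGT or CACGC, and overlaps between words were allowed.
EREG, chr4:74364895-74365144, plus strand: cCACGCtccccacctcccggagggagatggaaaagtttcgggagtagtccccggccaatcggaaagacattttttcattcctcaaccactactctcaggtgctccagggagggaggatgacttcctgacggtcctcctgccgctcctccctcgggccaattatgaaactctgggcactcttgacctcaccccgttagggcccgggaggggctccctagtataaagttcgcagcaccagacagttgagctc
TGFA, chr2:70553827-70554076, minus strand: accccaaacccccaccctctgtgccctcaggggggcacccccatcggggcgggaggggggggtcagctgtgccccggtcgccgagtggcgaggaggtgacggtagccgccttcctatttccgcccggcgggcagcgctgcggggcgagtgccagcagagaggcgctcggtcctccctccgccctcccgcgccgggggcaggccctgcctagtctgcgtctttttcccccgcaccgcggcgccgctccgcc
HBEGF, chr5:140346604-140346853, minus strand: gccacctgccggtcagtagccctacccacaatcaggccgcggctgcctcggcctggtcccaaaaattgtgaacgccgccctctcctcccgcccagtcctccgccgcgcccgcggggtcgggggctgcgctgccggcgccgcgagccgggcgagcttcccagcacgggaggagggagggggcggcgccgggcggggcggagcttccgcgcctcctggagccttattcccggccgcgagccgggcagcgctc
In these 3 windows the core occurred only in that of EREG, where CACGC begins 249 bases before the start site. Of the 9 members with a cluster, 7 had RefSeq windows of this kind, 9 windows in all, and 4 of the 9 windows held a core. These were the windows of EREG, BTC and EPGN and that of a second TGFA start site, not printed here. In the latter GCGTG begins 51 bases before the start site. Among all 35116 RefSeq windows of this length 43.2% held a core. The AP-1 words TGACTCA and TGAGTCA, which are the reverse complements of each other, were in 1 of the 9 windows, that of a second start site of EGFR, and in 4.20% of all windows. A match is a description of letters, and whether a factor binds there was not measured.

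EREG, HBEGF and TGFA differed between VHL+ and VHL- cells, EREG downwards and the other two upwards, whereas none of the 3 receptors passed the test. EREG, the ligand epiregulin, had the largest difference of the 9 members with VHL under both oxygen conditions, at a 4.76-fold lower signal in normoxic VHL+ cells and a 7.08-fold lower one under hypoxia. HBEGF, heparin-binding EGF-like growth factor, was 2.03-fold higher under normoxia and 3.91-fold higher under hypoxia. TGFA, transforming growth factor alpha, was 1.65-fold higher under hypoxia. Under normoxia 2 of 9 members were thus called, where 4.77% of all clusters were called (2.07% higher and 2.69% lower), and under hypoxia 3 of 9, where 11.6% of all clusters were called (10.3% higher and 1.31% lower). After quantile normalization EREG alone of these was called under normoxia, at a background of 5.42%, and EREG and BTC under hypoxia, at 5.5%. With 9 members, these shares describe the members and were not tested against the background. Every comparison is a contrast of one limma fit with 1 mean per group, adjusted over all 33297 clusters.

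**Figure D1:**
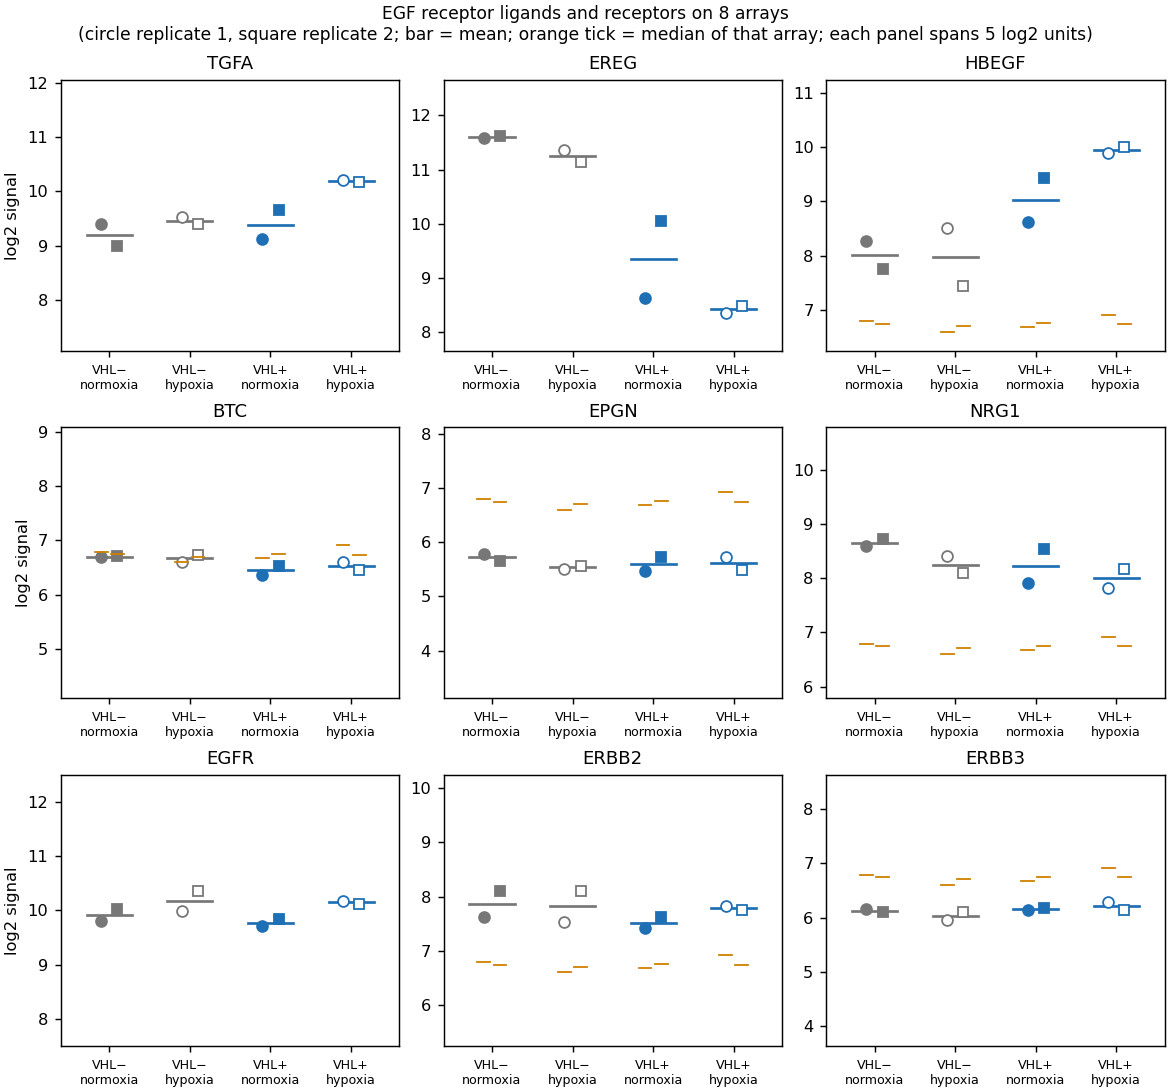
Log2 signals of the 9 members on the 8 arrays (vertical axes, log2 signal, each spanning 5 units) by group (horizontal axes). Circles and squares are replicates 1 and 2, filled for normoxia and open for hypoxia, grey for VHL- and blue for VHL+ cells, bars are group means, and orange ticks are the medians of the arrays where these fall inside the panel. EREG runs from 11.61 down to 8.36, HBEGF from 7.45 up to 10.00, and EPGN and ERBB3 stay below the ticks throughout.

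EREG had log2 signals of 11.58 and 11.61 in the replicates of VHL- cells under normoxia and of 11.36 and 11.14 in hypoxic VHL- cells. In VHL+ cells it had 8.64 and 10.05 under normoxia and 8.36 and 8.49 under hypoxia. All 4 arrays of VHL+ cells thus lay below all 4 of VHL- cells, and the pair of VHL+ normoxia was the one with the widest spread. The normoxic comparison of VHL+ with VHL- cells put EREG at -2.25 on the log2 scale (SE 0.27, adjusted p = 4.41e-05), and the hypoxic one at -2.82 (SE 0.27, adjusted p = 3.08e-06). After quantile normalization of the deposited values it was -2.26 (adjusted p = 0.0157) and -3.07 (adjusted p = 0.00674). In bulk RNA, less EREG transcript in each cell and fewer cells with the transcript cannot be told apart. Without VHL+ normoxia replicate 1 the normoxic value was -1.54, and without replicate 2 it was -2.96, each with a single array left in that group. The hypoxic call was lost without VHL+ hypoxia replicate 1 (-2.76, adjusted p = 0.0585), and the normoxic one when the 2 compared groups were fitted alone (adjusted p = 0.0950).

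HBEGF signals in VHL- cells were 8.26 and 7.75 under normoxia and 8.52 and 7.45 under hypoxia. In VHL+ cells they were 8.63 and 9.43 under normoxia and 9.90 and 10.00 under hypoxia. Here too no array of VHL+ cells overlapped with one of VHL- cells, but 8.52 and 8.63 lay close together. Under normoxia the log2 fold change was 1.02 (SE 0.27, adjusted p = 0.0352), and under hypoxia 1.97 (SE 0.27, adjusted p = 0.000135). Neither call held after quantile normalization, with values of 1.00 (adjusted p = 0.248) and 1.70 (adjusted p = 0.0643). The normoxic call was also lost without either array of VHL+ hypoxia (adjusted p = 0.333) and without VHL+ normoxia replicate 2 (0.62, adjusted p = 0.136), and the hypoxic call without VHL+ hypoxia replicate 1 (adjusted p = 0.114) or replicate 2 (adjusted p = 0.0880).

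For TGFA, VHL- cells had log2 signals of 9.39 and 8.99 under normoxia and of 9.52 and 9.40 under hypoxia, and VHL+ cells had 9.12 and 9.66 under normoxia and 10.21 and 10.17 under hypoxia. Only the hypoxic VHL+ arrays stood above all others, while the 2 normoxic groups overlapped. The log2 fold change with VHL was 0.73 (SE 0.17, adjusted p = 0.0102) under hypoxia and 0.20 (SE 0.17, 95% interval from -0.16 to 0.56, adjusted p = 0.880) under normoxia. The median of all clusters was 0.16 in the hypoxic comparison and -0.04 in the normoxic one, so that TGFA stood 0.57 above the median under hypoxia. Quantile normalization, which brings the arrays to the same distribution, left 0.45 (adjusted p = 0.226). The hypoxic call was lost without VHL+ hypoxia replicate 1 (adjusted p = 0.248) or replicate 2 (adjusted p = 0.128). The same scaling changed the background: clusters called higher with VHL under hypoxia fell from 10.3% to 2.76%, and those called lower rose from 1.31% to 2.74%.

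**Figure D2:**
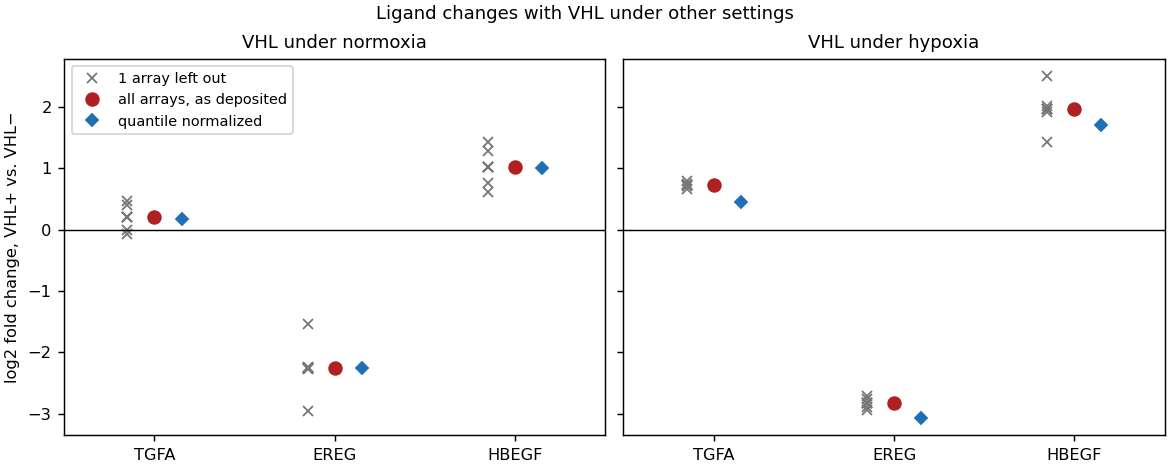
Log2 fold changes of TGFA, EREG and HBEGF in VHL+ vs. VHL- cells (vertical axis) under normoxia (left) and hypoxia (right). Red circles are the values as deposited, blue diamonds those after quantile normalization, and grey crosses those with 1 array left out in turn. EREG lies below 0 and HBEGF above 0 at every point, and TGFA under normoxia falls on both sides of 0.

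Among the other ligands, BTC, EPGN and NRG1 were not called in any of the 5 comparisons. NRG1, neuregulin 1, had signals of 8.58 and 8.71 in normoxic VHL- cells and of 8.41 and 8.08 under hypoxia. In VHL+ cells it had 7.91 and 8.54 under normoxia and 7.82 and 8.17 under hypoxia. The normoxic groups did not overlap, and the hypoxic ones did. VHL+ and VHL- cells differed by -0.42 on the log2 scale under normoxia (SE 0.19, adjusted p = 0.297) and by -0.25 under hypoxia (SE 0.19, adjusted p = 0.435). The other NRG1 cluster gave -0.47 (adjusted p = 0.0963) and -0.42 (adjusted p = 0.0884). Without VHL+ normoxia replicate 2, with a single array left in that group, the chosen cluster had -0.74 under normoxia.

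BTC, betacellulin, had 6.69 and 6.71 in normoxic VHL- cells, 6.61 and 6.73 in hypoxic VHL- cells, 6.36 and 6.53 in normoxic VHL+ cells and 6.59 and 6.45 in hypoxic VHL+ cells. The VHL+ arrays were the lower ones under both oxygen conditions, by less than in the ligands above and on a signal below the array's median on 6 of 8 arrays. With VHL its log2 fold change was -0.26 under normoxia (adjusted p = 0.474) and -0.15 under hypoxia (adjusted p = 0.522). After quantile normalization BTC passed under hypoxia (-0.31, adjusted p = 0.0440), as it did after median centring (-0.32, adjusted p = 0.0489). EPGN, epigen, was below the median of its array on all 8 arrays, with signals from 5.47 to 5.78, and its log2 fold changes with VHL were -0.12 and 0.07 (SE 0.14 each).

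None of the receptors was called in any of the comparisons. EGFR, the receptor of most of these ligands, had signals of 9.80 and 10.04 in normoxic VHL- cells, 9.98 and 10.36 in hypoxic VHL- cells, 9.71 and 9.83 in normoxic VHL+ cells and 10.18 and 10.11 in hypoxic VHL+ cells. Cells with and without VHL overlapped under both oxygen conditions. With VHL the log2 fold change of EGFR was -0.14 (95% interval from -0.46 to 0.17) under normoxia and -0.02 (from -0.34 to 0.30) under hypoxia. For ERBB2, whose signals ran from 7.42 to 8.10, it was -0.34 (from -0.72 to 0.05) and -0.03 (from -0.42 to 0.35). ERBB3 was below the median on all 8 arrays, from 5.95 to 6.29, with 0.03 (from -0.25 to 0.31) and 0.19 (from -0.09 to 0.47). These intervals bound the receptor differences in either direction and do not show that the levels were alike.

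**Figure D3:**
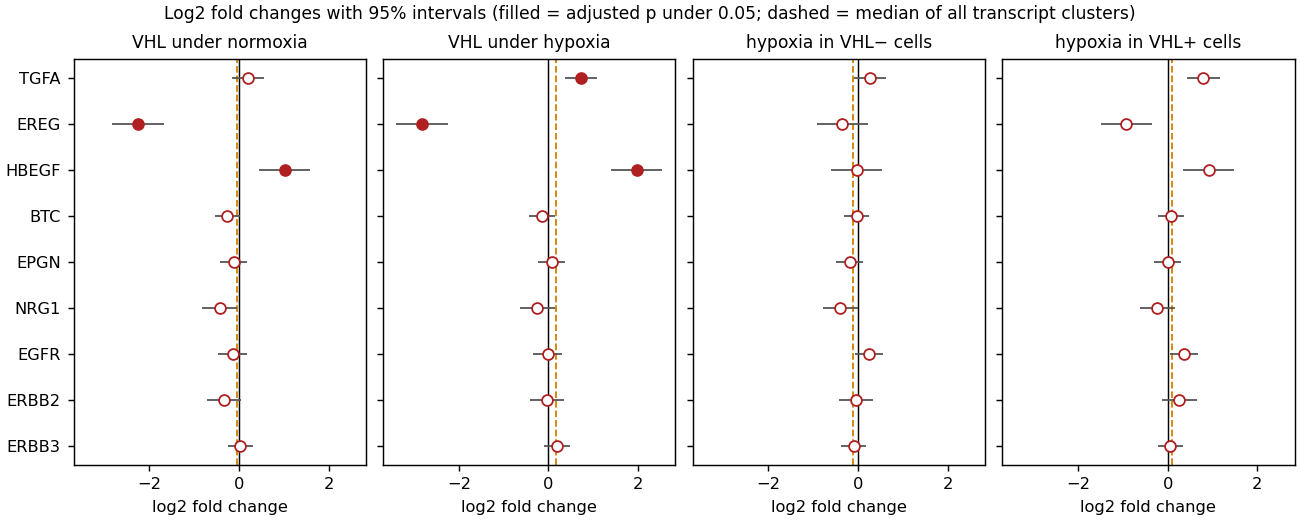
Log2 fold changes (horizontal axes) of the 9 members in VHL+ vs. VHL- cells under normoxia and hypoxia and in hypoxia vs. normoxia in VHL- and VHL+ cells, with 95% intervals of the limma fit. Filled circles mark an adjusted p under 0.05 and the dashed line is the median of all clusters. The filled points are EREG and HBEGF in the first panel and TGFA, EREG and HBEGF in the second.

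Hypoxia itself gave no call among the 9 members, in VHL- or in VHL+ cells, at a background of 0.0661% and 0.153% of all clusters called by limma. Unadjusted p values under 0.05 were seen for 1 member (NRG1) in VHL- cells and 4 members (TGFA, EREG, HBEGF and EGFR) in VHL+ cells, and an ordinary one-way test on the 2 compared groups gave 0 members at p under 0.005 in each. The share of all clusters at either unadjusted threshold was not set beside these counts, so they are a description only. In VHL- cells TGFA had a log2 fold change with hypoxia of 0.27 (SE 0.17), EREG of -0.35 (SE 0.27), HBEGF of -0.03 (SE 0.27), NRG1 of -0.40 (SE 0.19) and EGFR of 0.25 (SE 0.15). In VHL+ cells the values were 0.80 for TGFA (SE 0.17, adjusted p = 0.0901), -0.92 for EREG (SE 0.27, adjusted p = 0.367), 0.92 for HBEGF (SE 0.27, adjusted p = 0.367), -0.23 for NRG1 (SE 0.19, adjusted p = 0.941) and 0.37 for EGFR (SE 0.15, adjusted p = 0.699). In VHL+ cells the hypoxic arrays did not overlap with the normoxic ones for TGFA, EREG, HBEGF, EGFR or ERBB2. In VHL- cells they did not for TGFA, EREG, EPGN, NRG1 or ERBB3. The share of all clusters without overlap was not counted, so this is a description only. The spread of the 2 normoxic VHL+ arrays exceeded that of the hypoxic pair for TGFA, EREG, HBEGF, EGFR and ERBB2, up to an SD of 1.00 for EREG against 0.09.

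These hypoxia values in VHL+ cells depended on how the spread was estimated. By the ordinary one-way test on the 2 compared groups, which uses each gene's own spread, unadjusted p was 0.0997 for TGFA, 0.325 for EREG and 0.152 for HBEGF. In limma, a common spread for all clusters was estimated with the compared groups alone and without either VHL- normoxia array. The fit of the compared groups alone also called more clusters than the fit of all arrays did. With the compared groups alone, TGFA (adjusted p = 0.00114), EREG (4.50e-05) and HBEGF (4.71e-05) were all called, and without VHL- normoxia or VHL- hypoxia replicate 1 or 2, arrays outside the comparison, all 3 were called as well (adjusted p between 6.70e-05 and 0.00155). Without VHL+ normoxia replicate 2, TGFA (1.07, adjusted p = 0.000313) and HBEGF (1.32, adjusted p = 0.000354) were called, and without VHL+ normoxia replicate 1, EREG was (-1.63, adjusted p = 4.18e-08). After quantile normalization none of the 3 was called, at adjusted p of 0.724, 0.794 and 0.973 for TGFA, EREG and HBEGF. The difference between the hypoxia effects of VHL+ and VHL- cells, the interaction, was 0.94 for HBEGF (SE 0.38, adjusted p = 0.651), 0.53 for TGFA (SE 0.24, adjusted p = 0.651) and -0.57 for EREG (SE 0.39, adjusted p = 0.651). No member was called for it, at a background of 0.00601% of clusters, with 2 members at an unadjusted p under 0.05 and 0 by an ordinary linear model at p under 0.005. That background is for adjusted p, and the unadjusted counts have no share of all clusters beside them here. HBEGF passed without VHL- hypoxia replicate 1 (1.48, adjusted p = 0.000264), VHL- normoxia replicate 2 (1.20, adjusted p = 0.00952) or VHL+ normoxia replicate 2 (1.35, adjusted p = 0.0188), and EREG without VHL+ normoxia replicate 1 (-1.28, adjusted p = 0.00921).

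The rest of the pathway was followed in 5 lists. EGF, NRG2, NRG3, NRG4 and ERBB4, the ligands and the receptor outside the set, gave 0 calls of 5 in any comparison, and EGF, NRG3, NRG4 and ERBB4 were below the array medians on all 8 arrays. With VHL, 4.77% of all clusters were called under normoxia and 11.6% under hypoxia. Of 5 genes of ligand shedding, RHBDF2, a partner of ADAM17 on its way to the cell surface, fell by 0.57 on the log2 scale with VHL under normoxia (adjusted p = 0.0150). Under hypoxia RHBDF1, its relative, was higher with VHL by 0.53 (adjusted p = 0.0171) and RHBDL2, a rhomboid protease, by 0.55 (adjusted p = 0.0131). These calls stand beside 2.69% of all clusters called lower under normoxia and 10.3% called higher under hypoxia. After quantile normalization RHBDF2 under normoxia (adjusted p = 0.0182) and RHBDL2 under hypoxia (adjusted p = 0.0418) remained called, and RHBDF1 did not (adjusted p = 0.118). RHBDL2 was below the array medians on all 8 arrays. The protease genes ADAM10 and ADAM17 were not called. The median log2 fold change of this list was 0.08 under normoxia and 0.41 under hypoxia, against -0.04 and 0.16 for all clusters.

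Of the genes that carry the signal into the cell, 14 of 20 listed were measured, and none was called under normoxia in the deposited values. After quantile normalization SHC1 (0.43, adjusted p = 0.0257) and SOS2 (0.30, adjusted p = 0.0341) were higher with VHL under normoxia. With VHL under hypoxia, 4 of the 14 were called, all higher, in a comparison in which 10.3% of all clusters were called higher: the adaptors SHC1 (0.72, adjusted p = 0.00270) and GRB2 (0.53, adjusted p = 0.0222), the phospholipase PLCG1 (0.70, adjusted p = 0.00403) and the kinase subunit PIK3CB (0.62, adjusted p = 0.0282). After quantile normalization SHC1 alone of these passed (adjusted p = 0.0236), where 2.76% of all clusters were called higher. The median of the list was 0.24 under normoxia and 0.36 under hypoxia.

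Feedback inhibitors dampen the receptors and the kinases below them, and 14 of 14 listed were measured. LRIG1, a membrane protein that promotes degradation of the receptors, had log2 signals of 7.84 and 7.79 in normoxic VHL- cells, 7.73 and 8.50 in hypoxic VHL- cells, 6.15 and 6.47 in normoxic VHL+ cells and 6.64 and 6.33 in hypoxic VHL+ cells, the latter 4 below the medians of their arrays. No VHL+ array overlapped with a VHL- array. With VHL it fell under both oxygen conditions, with log2 fold changes of -1.50 under normoxia (SE 0.20, adjusted p = 0.000103) and -1.63 under hypoxia (SE 0.20, adjusted p = 3.49e-05), and it remained called after quantile normalization (adjusted p = 0.00896 and 0.00505). ERRFI1, an inhibitor of the EGFR kinase, was lower with VHL under normoxia (-0.82, adjusted p = 0.0281), and DUSP6, the phosphatase of ERK, under hypoxia (-0.89, adjusted p = 0.000829). CBL, a ubiquitin ligase of EGFR, was higher under hypoxia (0.83, adjusted p = 0.00717). ERRFI1 and CBL were not called after quantile normalization (adjusted p = 0.0817 and 0.288). In all, 0 of 14 rose and 2 fell with VHL under normoxia, beside 2.07% and 2.69% of all clusters, and 1 rose and 2 fell under hypoxia, beside 10.3% and 1.31%.

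**Figure D4:**
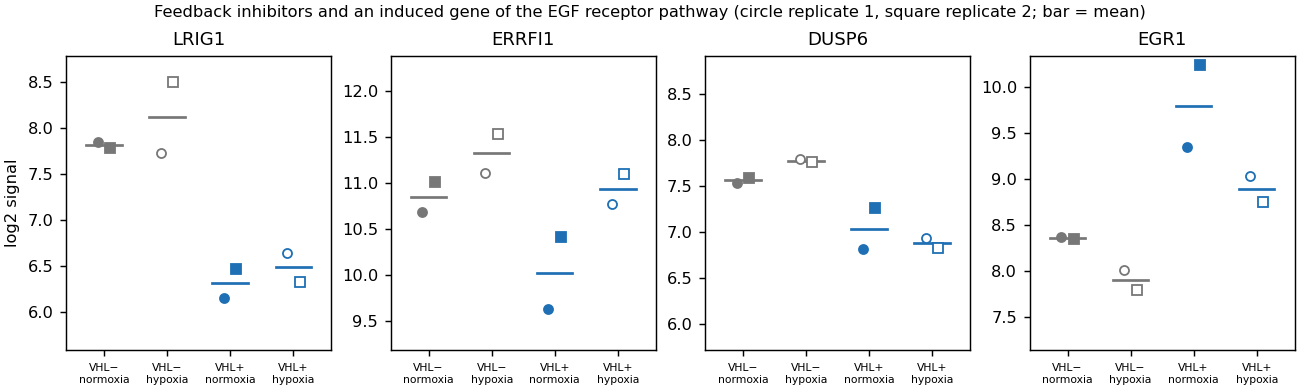
Log2 signals (vertical axes, each spanning the same width) of LRIG1, ERRFI1, DUSP6 and EGR1 on the 8 arrays by group. Circles and squares are replicates 1 and 2 and bars are group means. LRIG1 and DUSP6 lie lower and EGR1 higher on all VHL+ arrays than on any VHL- array, while the ERRFI1 arrays of VHL+ cells under hypoxia overlap with those of VHL- cells.

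Among 11 genes induced by EGF receptor signalling, EGR1, an early transcription factor, rose with VHL by 1.44 on the log2 scale under normoxia (adjusted p = 0.000246) and by 1.00 under hypoxia (adjusted p = 0.00401). IER3, an early response gene, fell by 1.01 (adjusted p = 0.00366) and by 0.67 (adjusted p = 0.0305). PTGS2, a cyclooxygenase, was lower under normoxia (-0.96, adjusted p = 0.0343), on a signal below the array medians on 6 of 8 arrays. Under hypoxia PHLDA1 (-0.91, adjusted p = 0.0267) and the ETS factor ETV5 (-0.46, adjusted p = 0.0458) were lower. So 1 gene of 11 rose and 2 fell under normoxia, beside 2.07% and 2.69% of all clusters, and 1 rose and 3 fell under hypoxia, beside 10.3% and 1.31%. After quantile normalization EGR1 under normoxia (adjusted p = 0.0172) and ETV5 under hypoxia (adjusted p = 0.0471) remained called, and the others were not (adjusted p from 0.0659 to 0.221). ETV4 was then called lower under hypoxia (-0.37, adjusted p = 0.0331), on a signal below the array medians on all 8 arrays. No gene of the 5 lists was called for hypoxia in either cell type or for the interaction. Each list call with VHL under hypoxia was lost without VHL+ hypoxia replicate 1, and adjusted p over the arrays left out reached 0.517 (PHLDA1). Of the normoxic ones only LRIG1 was kept without any single array (adjusted p up to 0.0382). RHBDF2 was lost without VHL- normoxia replicate 1 or 2 or VHL+ normoxia replicate 1 (adjusted p from 0.0793 to 0.158), EGR1 (adjusted p = 0.0518) and IER3 (adjusted p = 0.104) without either array of VHL+ hypoxia, ERRFI1 without those or VHL+ normoxia replicate 1 (adjusted p from 0.235 to 0.256), and PTGS2 without those or VHL- normoxia replicate 2 (adjusted p from 0.242 to 0.319).

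Among all 18417 genes, the ones closest in pattern to each called ligand were found by the root mean square difference of log2 signals over the 8 arrays, after each gene was centred on its own mean. For EREG, which spanned 3.25 log2 units, these were MIR21 (0.44), HIF1A (0.45) and SFMBT2 (0.51). All of them were lower with VHL, MIR21 with -2.20 and -2.06, HIF1A with -1.95 and -2.02, and SFMBT2 with -2.61 and -1.91 on the log2 scale under normoxia and hypoxia. The genes nearest in pattern were picked on these same 8 arrays, so that a shared direction follows from the choice. For HBEGF, which spanned 2.55, they were TTLL7 (0.25), DOCK2 (0.27) and EPB41L4A (0.28), with log2 fold changes with VHL under hypoxia of 1.72, 1.91 and 1.51. For TGFA, which spanned 1.21, they were SP100 (0.09), RIGI (0.12) and APOL2 (0.14), with 0.65, 0.70 and 0.68. The calls of SP100, RIGI and APOL2 under hypoxia were lost after quantile normalization, at 0.38, 0.44 and 0.44 (adjusted p = 0.194, 0.395 and 0.129), and without either array of VHL+ hypoxia. That of EPB41L4A was lost in both ways too (1.24 after quantile normalization, adjusted p = 0.226), and that of TTLL7 without VHL+ hypoxia replicate 1 (adjusted p = 0.0663). SP100 and RIGI are interferon-stimulated genes.

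EREG, EPGN, AREG and BTC lie next to each other on chromosome 4, beside a cluster of CXC chemokine genes. The 12 protein-coding genes on each side of EREG in RefSeq, a span chosen after their values were known, held 22 measured genes of 24. With VHL under normoxia 4 of the 22 fell, all of them chemokines: CXCL8 (-3.36, adjusted p = 2.09e-07), CXCL1 (-3.32, adjusted p = 2.81e-09), CXCL5 (-1.93, adjusted p = 6.49e-05) and CXCL2 (-0.78, adjusted p = 0.00928). Of all clusters, 2.69% were called lower with VHL under normoxia and 1.31% under hypoxia. CXCL8, CXCL1 and CXCL5 were lower under hypoxia too (-1.42, -1.88 and -1.82). NAAA, an amidase, was higher under both conditions (0.99 and 1.40), and SDAD1 under hypoxia (0.75), beside 2.07% and 10.3% of all clusters called higher under normoxia and hypoxia. Without 1 array of VHL+ hypoxia the calls of CXCL2 under normoxia, of CXCL8, CXCL5 and SDAD1 under hypoxia and of NAAA under both conditions were lost (adjusted p up to 0.354), as was that of SDAD1 without VHL- hypoxia replicate 1 and that of CXCL2 without VHL+ normoxia replicate 1, while those of CXCL1 held without any single array (adjusted p up to 0.0411). EPGN and BTC, the measured genes closest to EREG on either side, were not called. In hypoxia vs. normoxia of VHL+ cells CXCL8 rose (1.84, adjusted p = 0.00494), while EREG had -0.92, and the CXCL8 call was lost after quantile normalization (adjusted p = 0.533) and without either array of VHL+ hypoxia (adjusted p from 0.472 to 0.999).

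**Figure D5:**
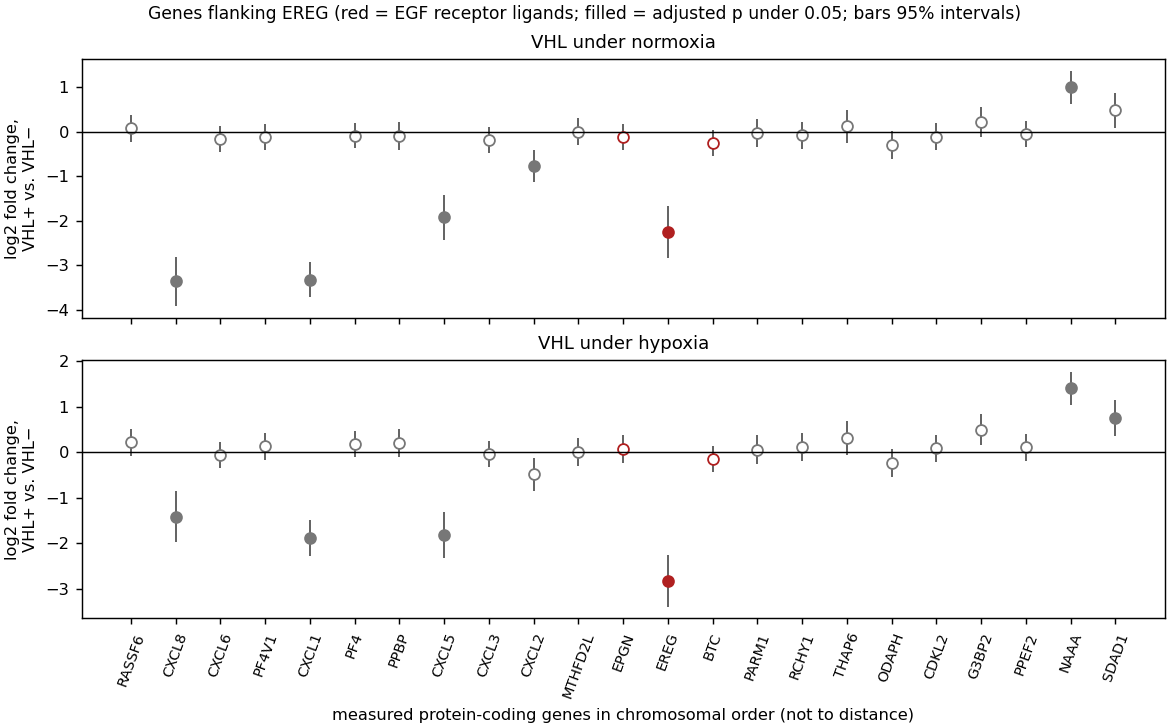
Log2 fold changes in VHL+ vs. VHL- cells (vertical axes, with 95% intervals) of the measured genes on both sides of EREG in their order on the chromosome, under normoxia (top) and hypoxia (bottom). Red points are EGF receptor ligands and filled points have an adjusted p under 0.05. EREG and the chemokine genes CXCL8, CXCL1 and CXCL5 lie lowest, and EPGN and BTC lie near 0.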

How the data were processed

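The authors hybridized biotin-labelled cDNA to Affymetrix Human GeneChip 1.0 ST arrays and normalized the arrays by RMA in Partek software. As deposited, each transcript cluster has a log2 signal on every array, and these signals were used as they stand. The genome build and the versions of the software are not given in the sources used here. Gene symbols came from the platform annotation, in which 19460 of 33297 clusters have 1 symbol, 1754 several and 12083 none. The 8 arrays were fitted in limma 3.58.1 (R 4.3.3) as 4 group means, with 4 residual degrees of freedom and 14.0 from the prior, followed by Benjamini-Hochberg adjustment over all clusters (threshold 0.05). The fit was tested on simulated data, where 99% of added log2 changes of 2 and 76% of those of 1 were called, with 8 false calls. The simulated noise was independent between arrays, so that test does not cover shifts of whole arrays. An ordinary one-way test on the 2 compared groups (for the interaction, a linear model over the 4 groups) was an alternative. The study describes its one-way analysis as made among the VHL and oxygen groups, and that analysis was not run here. The members and gene lists were chosen with earlier results of these data known. Named were all members, VHL, up to 4 called genes of each list per comparison and the 3 genes nearest in pattern to each called member. Replicates are named biological by the labels. The number of arrays limits the precision. Promoter sequences are those of RefSeq. AREG, the protein sequences and the other cell lines and assays of the study were not analysed here.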

Additional observations from a re-analysis of the deposited data

How the results depend on the processing

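The VHL effects of EREG, HBEGF and TGFA kept their direction wherever they had been called, over all alternatives, with 60 of 85 values on the same side of the threshold and 25 no longer past it. With 2 arrays per group, the estimate of the spread decided many calls: in 5 settings limma estimated 1 spread for all clusters, and after quantile normalization and median centring the prior degrees of freedom were 2.82 and 2.93. Of the values that were not called, 589 kept sign and side, 31 passed and 46 changed sign. Low signals, below the array median on 6 of 8 arrays for BTC and on all 8 for EPGN and ERBB3, limit what can be seen. The causes were not tested.

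Of the members, 1 was called with VHL under normoxia after quantile normalization or median centring and 0 with the compared groups alone or by the ordinary one-way test on the 2 groups, unadjusted (p under 0.005) or adjusted. Under hypoxia the one-way test called 1 unadjusted and 0 adjusted. For hypoxia in VHL+ cells the compared groups alone gave 3 and trend with robust estimation 2. Clusters called with VHL under normoxia numbered 1587, against 250 with the compared groups alone, and 288 and 1 by the one-way test, unadjusted and adjusted. Under hypoxia 3873 became 1831 after quantile normalization, 1423 after median centring, and 400 and 1 by the one-way test. For hypoxia in VHL- cells 22 became 0 after quantile normalization, median centring, with the compared groups alone and by the adjusted one-way test, 220 with trend and robust estimation, 253 by the unadjusted one-way test and 14 among clusters with 1 symbol. For hypoxia in VHL+ cells 51 became 1 after either scaling, 228 with the compared groups alone, 182 with trend and robust estimation, and 121 and 0 by the one-way test. For the interaction 2 became 0 after either scaling, among clusters with 1 symbol and by the adjusted linear model, 89 with trend and robust estimation, and 146 by the unadjusted linear model.

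Same-numbered replicates deviated together with correlations from 0.0503 to 0.605 over the 6 pairs of groups, over 0.1 in 4 and under it in 2. The labels name no shared batch or day, so the numbers were not taken to pair the arrays, and whether same-numbered arrays share more than a number is not settled. With the replicate number as a block, 2518 clusters were called with VHL under normoxia, 220 and 336 for hypoxia in VHL- and VHL+ cells and 98 for the interaction, 3 members (TGFA, EREG and HBEGF) for hypoxia in VHL+ cells and 1 (HBEGF) for the interaction.

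Without 1 array in turn, clusters called ranged from 473 to 2551 and from 256 to 5090 with VHL under normoxia and hypoxia, from 2 to 282 and from 0 to 354 for hypoxia in VHL- and VHL+ cells, and from 0 to 203 for the interaction. Members called ranged from 1 to 2, from 0 to 3, from 0 to 3 in VHL+ cells and from 0 to 1 for the interaction. Log2 fold changes that crossed 0 ranged with VHL under normoxia from -0.25 to 0.0083 (EPGN) and from -0.0735 to 0.47 (TGFA), and under hypoxia from -0.0423 to 0.19 (EPGN), -0.21 to 0.17 (EGFR) and -0.32 to 0.26 (ERBB2). For hypoxia in VHL- cells they ranged from -0.56 to 0.51 (HBEGF), -0.0959 to 0.0280 (BTC) and -0.33 to 0.24 (ERBB2), and in VHL+ cells from -0.0116 to 0.16 (BTC), -0.12 to 0.14 (EPGN), -0.0100 to 0.13 (ERBB3) and -0.54 to 0.0859 (NRG1). For the interaction they ranged from -0.0656 to 0.31 (EGFR), -0.14 to 0.49 (NRG1) and -1.28 to 0.14 (EREG).

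Values that changed sign after quantile normalization and after median centring were, in this order, -0.0232 and -0.102 for EPGN with VHL under hypoxia. For hypoxia in VHL- cells they were 0.0725 and 0.0866 for HBEGF, 0.0836 and 0.0798 for BTC, 0.0676 and 0.0716 for ERBB2 and 0.0279 and 0.0130 for ERBB3. In VHL+ cells they were -0.0196 and -0.0397 for BTC and -0.000533 and -0.0514 for ERBB3, and -0.107 for EPGN after median centring alone. For the interaction they were -0.103 and -0.120 for BTC, -0.0798 and -0.0550 for NRG1, -0.146 and -0.105 for EGFR and -0.0284 and -0.0644 for ERBB3, and -0.0325 for EPGN after median centring alone.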
